A study of Homo sapiens with 25 samples.

Results

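The genes examined here are the SOX, PAX, SIX-family and TBX factors, 4 families of transcription factors that direct organ and cell fate in the embryo. A gene was included if it codes for a protein, lies on an autosome and has a symbol made of SOX, PAX, TBX or the SIX-family letters followed by digits only. This rule took 45 of 19111 autosomal protein-coding genes, namely 18 SOX, 9 PAX, 6 SIX-family and 12 TBX genes, and it used no measured value. Each gene was scored at the start of its canonical transcript, with a promoter defined as 1 kb on either side.

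The series profiled chromatin by immunoprecipitation and sequencing (ChIP-seq) in MDA-MB-231 cells, an established human triple-negative breast cancer line with a mesenchymal form. The groups were cells in which PML was silenced by lentiviral shRNA (PML knockdown) and control cells, each with 2 libraries for H3K4me3, H3K27ac, H3K9me3 and lamin B1 (LMNB1). A further 3 libraries for PML, the scaffold of PML nuclear bodies, carry no condition in their titles, and the H3K27me3 libraries were not analysed here. The labels give neither the hairpin sequence, nor the vector used in control cells, nor the age of the knockdown, and all cells come from 1 line.

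Each target and condition has 1 deposited list, 9 in all, with no value per replicate, so no difference below could be tested against replicate spread and read depth is unknown. H3K4me3 and H3K27ac came as narrow peaks, each with a fold enrichment and a q-value, both the authors' own values. PML, LMNB1 and H3K9me3 came as broad domains. A promoter without a peak is one below the authors' threshold, which is not the same as one without the mark. The PML knockdown lists held 27828 H3K4me3 and 43675 H3K27ac peaks, and the control lists 22284 and 42396. The mesenchymal markers VIM, CD44, ZEB1, AXL and CAV1 had both marks in both conditions, 5 of 5, against 49.7% of all genes. Of the 5 luminal epithelial markers, CDH1 and GATA3 had neither mark, ESR1 and EPCAM had H3K4me3 in both lists, and PGR had it in the PML knockdown list only, as EPCAM had H3K27ac. H3K4me3 was thus called at 3 of the 5 luminal markers in the PML knockdown list and at 2 in the control list. Over all genes it was called at 64.4% and 62.5%. None of 4 immune and endothelial markers had a promoter peak, as held for 34.5% of all genes.

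SOX factors bind DNA through an HMG box, PAX factors through a paired domain, SIX-family factors through a homeodomain with a SIX-type domain before it, and TBX factors through the T-box. They act early and in few tissues, for example SOX9 in cartilage and SOX2 in neural progenitors, and their promoters are often rich in CpG. In cells that do not use such genes, CpG-rich developmental promoters are commonly bound by Polycomb complexes, which deposit H3K27me3. H3K4me3 marks promoters that are active or poised, H3K27ac marks active promoters and enhancers, and H3K9me3 and LMNB1 mark compact chromatin and chromatin at the nuclear lamina.

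The sequences below show the promoters that the comparisons turn on. Each is the 250 bases just before the gene start, read 5′ to 3′ on the gene's strand, with every CpG in capitals. SOX12 and SIX4 had the widest H3K4me3 peaks of the genes with an entry in the RefSeq promoter table. SIX2 had an H3K27ac peak in 1 list only. SOX1 and PAX2 held the most CpG around the start of the genes with an entry and no peak. SOX5 was chosen after its values were seen, for the fold enrichments given further on, and its bases come from the hg38 genome. The others are RefSeq sequences of GRCh38.p14, at chr20:325302-325551 (plus strand), chr14:60724352-60724601 (minus), chr2:45009453-45009702 (minus), chr13:112066899-112067148 (plus) and chr10:100745332-100745581 (plus), and SOX5 lies at chr12:23949671-23949920 (minus).
SOX12: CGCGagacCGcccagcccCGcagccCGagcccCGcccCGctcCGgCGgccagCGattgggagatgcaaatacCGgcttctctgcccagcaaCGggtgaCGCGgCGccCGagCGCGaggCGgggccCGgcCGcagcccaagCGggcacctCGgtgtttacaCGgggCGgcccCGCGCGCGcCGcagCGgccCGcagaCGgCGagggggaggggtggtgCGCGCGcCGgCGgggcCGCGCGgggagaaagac
SIX4: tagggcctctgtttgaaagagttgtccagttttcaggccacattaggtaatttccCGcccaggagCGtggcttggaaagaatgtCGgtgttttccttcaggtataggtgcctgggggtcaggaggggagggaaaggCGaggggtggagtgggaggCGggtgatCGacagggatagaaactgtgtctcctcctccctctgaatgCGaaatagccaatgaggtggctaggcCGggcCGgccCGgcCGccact
SIX2: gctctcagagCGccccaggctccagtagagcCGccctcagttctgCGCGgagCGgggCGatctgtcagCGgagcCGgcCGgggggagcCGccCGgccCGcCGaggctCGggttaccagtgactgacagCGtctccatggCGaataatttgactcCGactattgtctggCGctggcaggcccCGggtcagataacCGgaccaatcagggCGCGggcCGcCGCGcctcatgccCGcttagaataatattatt
SOX1: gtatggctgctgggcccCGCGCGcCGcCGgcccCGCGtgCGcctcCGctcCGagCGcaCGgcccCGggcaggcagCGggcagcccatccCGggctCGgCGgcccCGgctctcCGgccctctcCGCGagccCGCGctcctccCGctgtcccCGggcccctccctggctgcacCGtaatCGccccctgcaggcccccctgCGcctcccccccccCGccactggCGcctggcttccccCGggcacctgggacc
PAX2: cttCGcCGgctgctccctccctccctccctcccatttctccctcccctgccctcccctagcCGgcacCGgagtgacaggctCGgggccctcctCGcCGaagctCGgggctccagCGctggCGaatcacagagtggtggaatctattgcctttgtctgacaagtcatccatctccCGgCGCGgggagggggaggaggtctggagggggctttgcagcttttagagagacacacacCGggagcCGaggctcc
SOX5: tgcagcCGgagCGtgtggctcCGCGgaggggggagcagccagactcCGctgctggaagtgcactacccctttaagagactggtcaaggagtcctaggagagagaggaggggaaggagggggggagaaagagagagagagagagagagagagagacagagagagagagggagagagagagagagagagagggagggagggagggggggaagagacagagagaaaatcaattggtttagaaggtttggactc
The motif searched was CG, which reads the same on both strands and cannot overlap itself. SOX12 held 42, SOX1 31, SIX2 26, PAX2 15, SIX4 11 and SOX5 5 CpG in these 250 bases. Among 14236 autosomal promoters matched to the table the median was 19, and 97.2% held at least 1. The 24 promoters of the 45 genes matched had a median of 15.5. SOX1 and PAX2, both without a peak in any list, thus sit on both sides of the median, and the lowest count belongs to SOX5, which had H3K4me3 in both conditions.

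Around the start these promoters were rich in CpG and seldom called as marked. A promoter was taken as CpG-rich when its 2 kb had an observed-to-expected CpG ratio of at least 0.6 and at least 50% GC. That held for 35 of the 45 genes (77.8%), against 51.9% of all genes. An H3K4me3 peak was present at 16 of 45 promoters in the PML knockdown list (35.6%) and at 15 in the control list (33.3%). Over all genes the shares were 64.4% in the PML knockdown list and 62.5% in the control list. Among CpG-rich promoters, 13 of 35 (37.1%) were marked in each list, while 86.4% of all such promoters were marked in the PML knockdown list and 84.3% in the control list. In both conditions the share of marked promoters was lower among the developmental genes than among all genes, also within the CpG-rich class.

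H3K27ac was rarer still. It was called at 9 of 45 promoters in the PML knockdown list (20%) and at 8 in the control list (17.8%), against 54.3% of all genes in the PML knockdown list and 51.4% in the control list. Of the promoters with H3K4me3, 9 of 16 also had H3K27ac in the PML knockdown list (56.2%), against 82.9% over all genes. In the control list it was 7 of 15 (46.7%), against 80.6% over all genes. Peaks in all 4 lists were found at 7 promoters (15.6%, against 49.7% of all genes), among them those of SIX4, SIX5, SOX4, SOX9, SOX12 and TBX6.

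**Figure D1:**
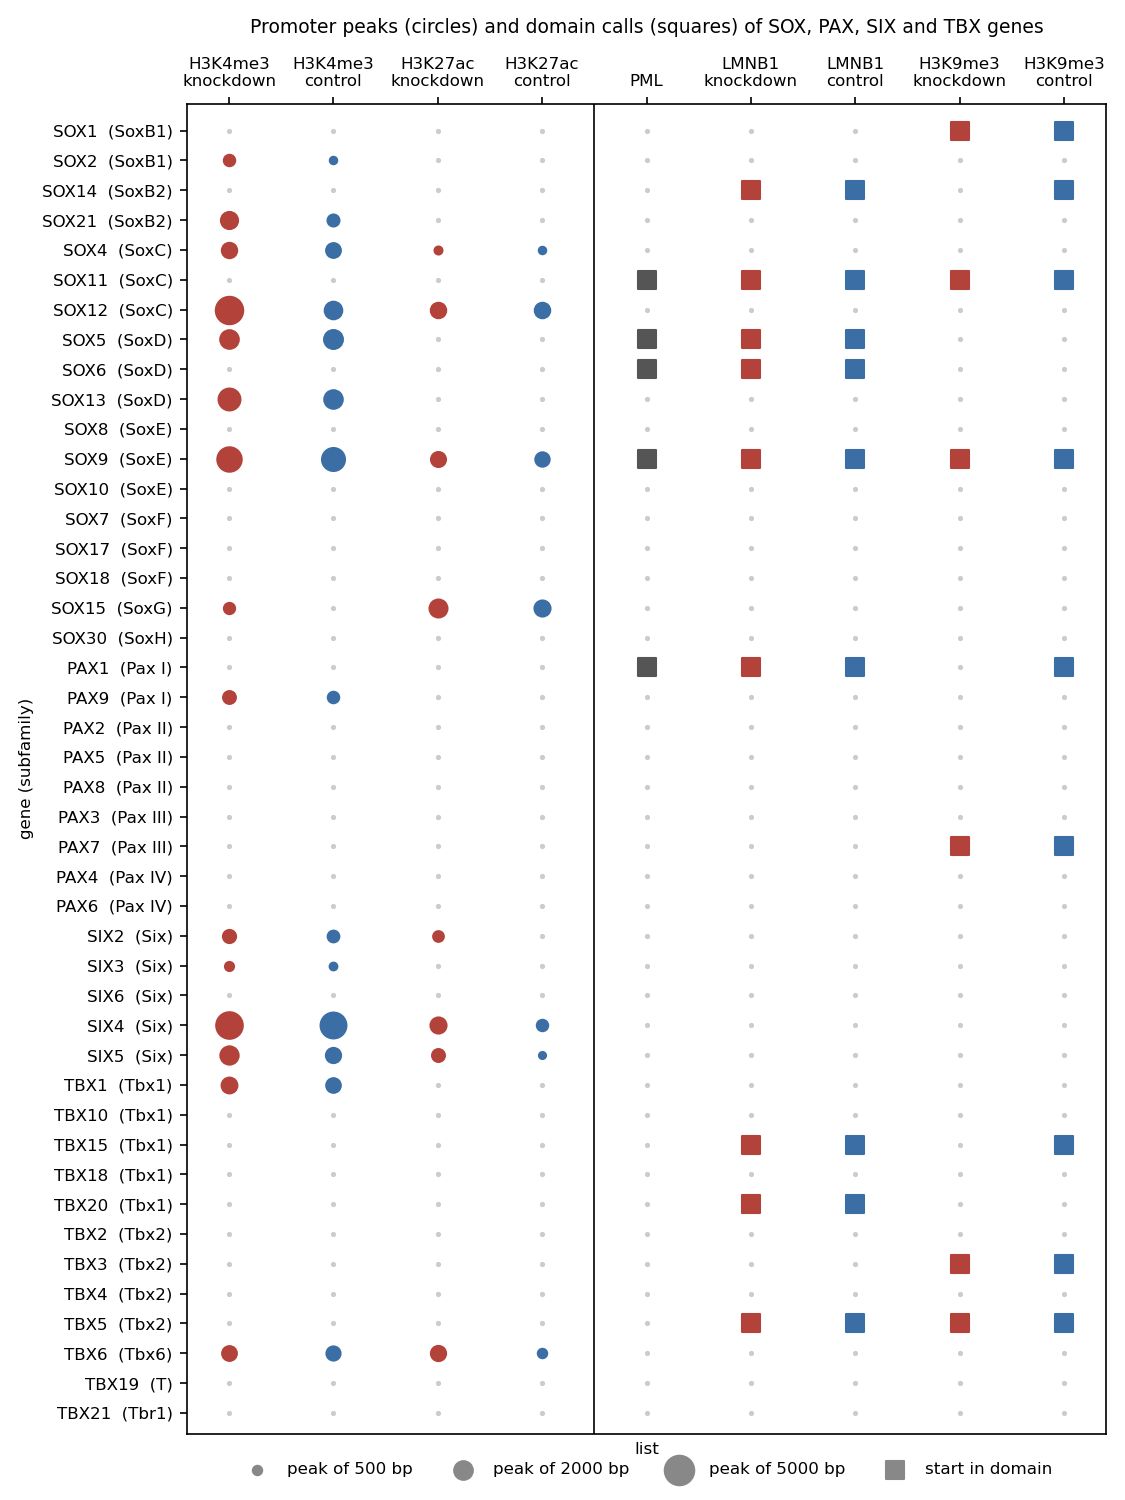
Peaks and domains of the genes reported by name, ordered by subfamily, in the 9 lists. Circles show a promoter peak, with an area proportional to the width in bp of the widest one. Squares show a start inside a domain, and small grey dots show neither. SIX2, SIX3, SIX4 and SIX5 have circles and no squares, and 29 genes have no circle.

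No promoter peak in any list was found at 29 genes (64.4%, against 34.5% of all genes). These were SOX1, SOX6, SOX7, SOX8, SOX10, SOX11, SOX14, SOX17, SOX18 and SOX30, PAX1 to PAX8, SIX6, and TBX2, TBX3, TBX4, TBX5, TBX10, TBX15, TBX18, TBX19, TBX20 and TBX21. They include the neural crest factor SOX10, the endothelial factors SOX7, SOX17 and SOX18, the kidney factor PAX2, the B cell factor PAX5 and the T helper factor TBX21. Of the 29, 22 were CpG-rich (75.9%), against 20.3% of all promoters without a peak. Their median CpG ratio was 0.705, close to the 0.752 of the 16 genes with a peak, whereas over all genes it was 0.291 without and 0.701 with a peak. CpG content therefore differed little between marked and unmarked developmental promoters. The nearest H3K4me3 peak lay at a median of 52.7 kb in the PML knockdown list and 75.9 kb in the control list, against 38.3 and 49.1 kb for all 6597 genes without a promoter peak. An H3K27ac peak lay within 100 kb of 21 of the 29 starts in the PML knockdown list (72.4%, against 80.1% of all genes without a promoter peak) and of 20 in the control list (69.0%, against 78.4%).

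The SIX-family products act with EYA coactivators in muscle, kidney, eye and sensory organs. H3K4me3 was called at SIX2, SIX3, SIX4 and SIX5 in both conditions, and the retina factor SIX6 had neither mark. H3K27ac was called at SIX4 and SIX5 in both lists and at SIX2 in the PML knockdown list. In the other families, 1 of 9 PAX promoters and 2 of 12 TBX promoters had H3K4me3 in either list. Of the 18 SOX promoters, 8 had it in the PML knockdown list and 7 in the control list. The families are small and these counts carry no test.

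SIX4, a muscle factor, had an H3K4me3 peak of 4061 bp (fold 32.9) in the PML knockdown list and 3848 bp (12.1) in the control list. Both peaks covered the 250 bases printed above. Its H3K27ac was a peak of 1485 bp (6.86) in the PML knockdown list and 2 peaks of 743 bp (3.20) and 471 bp (3.79) in the control list. SIX5, which lies beside DMPK, had 2 H3K4me3 peaks in the PML knockdown list, of 1916 bp (21.6) and 1398 bp (15.7), and 3 in the control list, of 1326 bp (8.44), 1053 bp (7.53) and 488 bp (7.74). H3K27ac at SIX5 was weak, with folds of 5.28 and 4.95 in the PML knockdown list and 2.56 and 2.27 in the control list. A further control peak of 280 bp (3.53) lay upstream and was missed by the promoter window. Its summit was within 100 bp of that of the 4.95 peak, whereas the summit of the 2.27 peak was not.

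SIX2 and SIX3 lie 67.8 kb apart and were marked more narrowly. SIX2, which keeps nephron progenitors undifferentiated, had H3K4me3 over 990 bp (fold 20.9) in the PML knockdown list and over 787 bp (6.83) in the control list. It was the only one of the 45 genes with H3K27ac in a single list, a 655 bp peak in the PML knockdown list with a fold of 7.63 and a −log10 q of 23.9. Over all genes, 3.25% had an H3K27ac promoter peak in the PML knockdown list only and 0.670% in the control list only. All 3 SIX2 peaks lay upstream of the start. The H3K4me3 peak ended 196 bp before it in the PML knockdown list and 321 bp before it in the control list, so the printed bases were partly covered in the PML knockdown list alone. SIX3, a forebrain and eye factor, had 473 bp (7.97) in the PML knockdown list and 343 bp (2.98) in the control list, with a wider H3K4me3 peak upstream of 2230 bp (18.9) in the PML knockdown list and 1497 bp (10.3) in the control list.

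**Figure D2:**
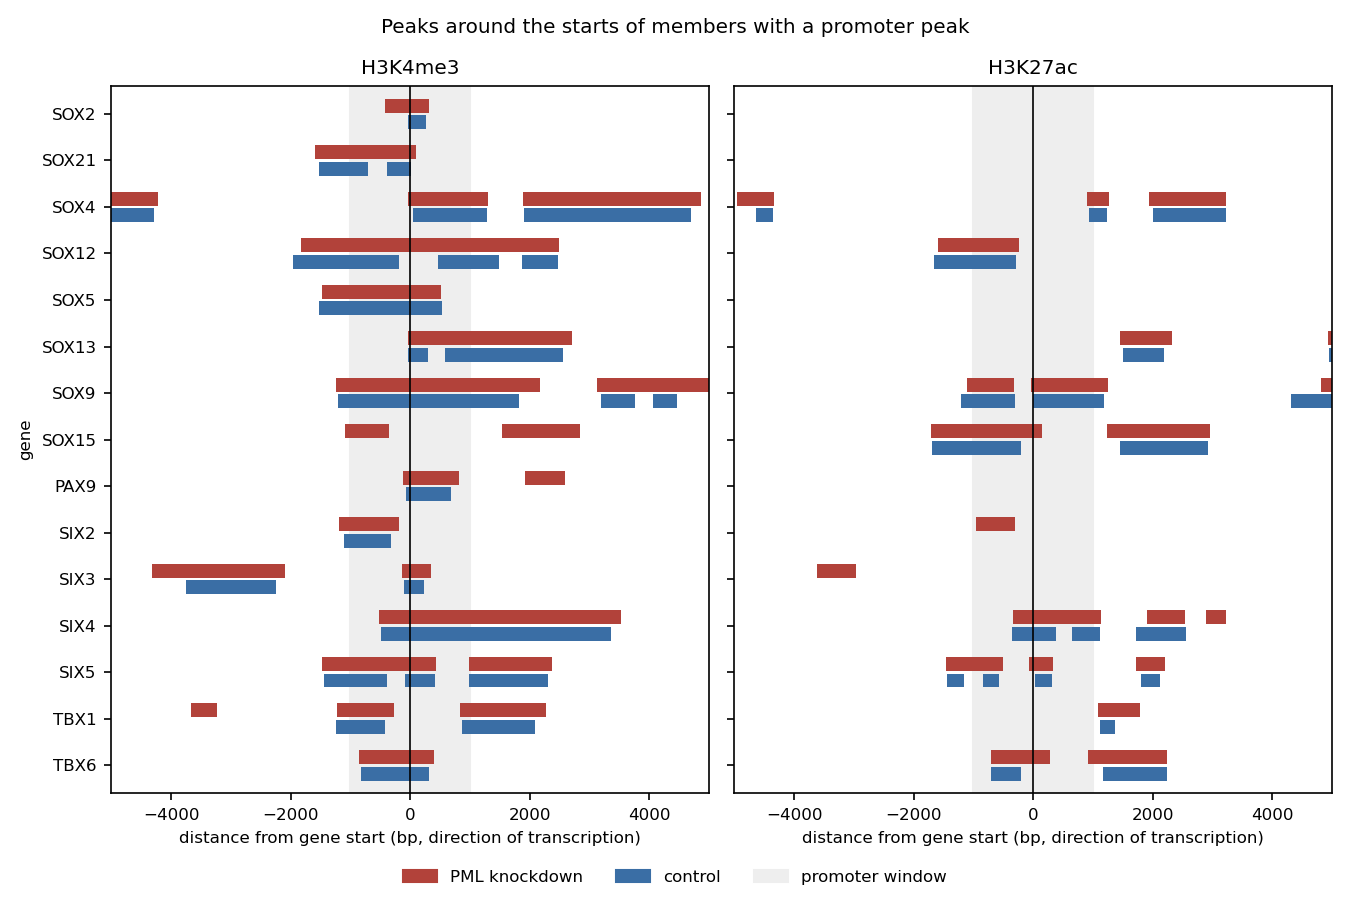
Peaks within 5 kb of the start of the named genes with a promoter peak, H3K4me3 on the left and H3K27ac on the right, in bp along the direction of transcription. PML knockdown peaks (red) are drawn above control peaks (blue), and grey marks the promoter window. SIX4, SOX9 and SOX12 have broad peaks, and several control peaks are divided where the PML knockdown list has 1 peak.

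Among the SOX genes, the SoxC factor SOX4, which TGF-beta signalling induces in breast cells, had H3K4me3 over 1352 bp (fold 21.6) in the PML knockdown list and 1253 bp (14.0) in the control list. Its H3K27ac promoter peaks, of 364 bp (4.92) in the PML knockdown list and 318 bp (4.02) in the control list, lay near the edge of the window. SOX12, of the same subfamily, had a single H3K4me3 peak of 4320 bp (36.6) in the PML knockdown list. In the control list the window held 2 peaks, of 1769 bp (21.6) and 1023 bp (8.03). The gap between these began 196 bp before the start, so most of the CpG-dense bases printed above lay inside the peak in the PML knockdown list and outside it in the control list. H3K27ac at SOX12 stayed upstream, at 1364 bp (9.15) in the PML knockdown list and 1369 bp (6.52) in the control list. SOX11, the other SoxC gene, had neither mark.

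SOX9, a factor of cartilage, testis and mammary progenitor cells, had H3K4me3 over 3419 bp (fold 42.0) in the PML knockdown list and 3032 bp (25.7) in the control list. H3K27ac stood on both sides of the start, with the larger peak after the start, of 1292 bp (8.72) in the PML knockdown list and 1184 bp (6.76) in the control list. SOX15 was the only one of the 45 genes with H3K4me3 in a single list. Its peak of 724 bp in the PML knockdown list had a fold of 4.70 and a −log10 q of 20.7. Over all genes, 1.79% had an H3K4me3 promoter peak in the PML knockdown list only and 0.0942% in the control list only. H3K27ac at SOX15 was strong in both lists, with 1857 bp (20.4) in the PML knockdown list and 1480 bp (14.4) in the control list.

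The neural factors SOX2 and SOX21 carried H3K4me3 without H3K27ac. SOX2, which maintains pluripotent and neural progenitor cells, had 746 bp (fold 11.7) in the PML knockdown list and 316 bp (8.44) in the control list. A long noncoding RNA starts 187 bp from SOX2, as do others 214 bp from SIX3 and 850 bp from SOX13. Peaks carry no strand, so H3K4me3 at these promoters cannot be assigned to 1 gene. SOX21, which promotes neuronal differentiation, had 1681 bp (9.49) in the PML knockdown list and 2 peaks of 823 bp (3.10) and 410 bp (4.27) in the control list. PAX9, a tooth and thymus factor and the one PAX gene with a promoter peak at its canonical start, had 948 bp (9.58) in the PML knockdown list and 752 bp (5.42) in the control list. TBX1, a factor of the pharyngeal arches, had H3K4me3 on either side of its start, with folds of 20.6 and 7.92 in the PML knockdown list and 9.87 and 5.89 in the control list. TBX6, a factor of paraxial mesoderm, had H3K4me3 over 1252 bp (21.2) in the PML knockdown list and 1146 bp (14.0) in the control list. Its H3K27ac peaks in the window were of 990 bp (4.60) and 1327 bp (7.79) in the PML knockdown list and of 508 bp (3.87) in the control list. A control peak of 1079 bp (3.54), with its summit 9 bp from that of the 1327 bp peak, began 1160 bp after the start and was missed by the window. No other TBX gene had H3K27ac within 1 kb of its start. At TBX1 it began 1081 bp after the start in the PML knockdown list (fold 4.52) and 1123 bp after it in the control list (3.31).

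With peaks taken as deposited, marked developmental promoters had narrower peaks than marked promoters in general. The widest H3K4me3 peak per promoter had a median of 1560 bp in the PML knockdown list and 1253 bp in the control list. Over all marked promoters the medians were 2226 bp in the PML knockdown list and 1866 bp in the control list, and 5 of the developmental genes exceeded them in each list. For H3K27ac the medians were 1327 bp in the PML knockdown list and 963.5 bp in the control list, against 1480 bp in the PML knockdown list and 1295 bp in the control list over all genes. This order does not hold for H3K27ac if peaks within 1 kb are joined, where the medians became 2333 bp in the PML knockdown list and 2028 bp in the control list, against 1699 bp and 1598 bp in these lists over all genes. For H3K4me3 the joined medians were 1834 bp in the PML knockdown list, against 2445 bp over all genes. In the control list they were 2052 bp against 2176 bp, so most of the difference there was not seen. The promoter window held more than 1 H3K4me3 peak at 2 of 16 genes in the PML knockdown list and at 5 of 15 in the control list, against 14.5% and 21.5% of all marked promoters.

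**Figure D3:**
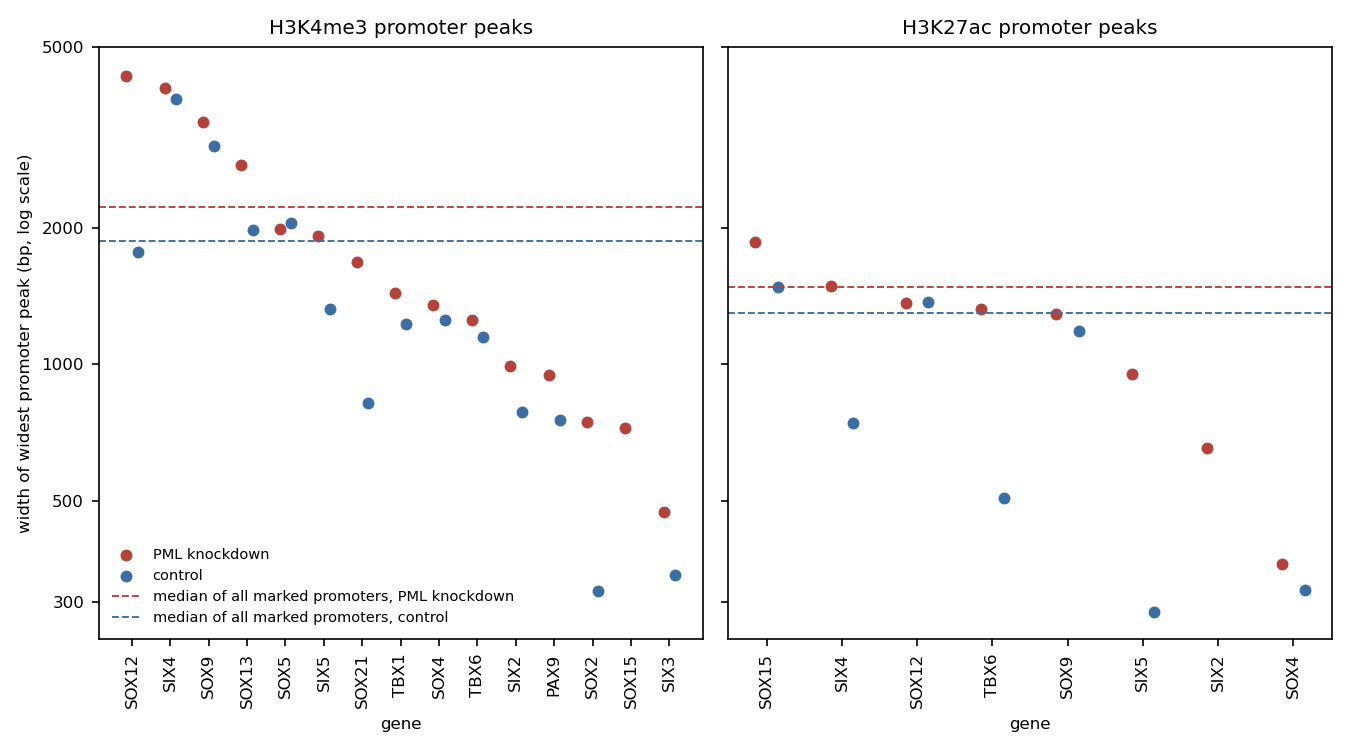
Width of the widest promoter peak, in bp on a log scale, for each named gene with H3K4me3 (left) or H3K27ac (right), in PML knockdown (red) and control cells (blue). Dashed lines are the medians of all marked promoters in each list, 2226 and 1866 bp for H3K4me3. Of the genes shown, SIX4, SOX9, SOX12 and SOX13 rise above the PML knockdown line for H3K4me3.

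Wider peaks and higher folds in the PML knockdown list were found across the genome. Of the 15 developmental promoters with H3K4me3 in both lists, 14 were wider in the PML knockdown list, as were 95.2% of all 11921 shared promoters. The median ratio of widths was 1.26 for the developmental genes and 1.14 for all. With peaks within 1 kb joined, 13 of the 15 were wider and the median ratios were 1.09 and 1.11, so the larger ratio of the developmental genes was not seen. The median log2 ratio of fold enrichment, PML knockdown over control, was 0.76 for the developmental genes and 0.92 for all. The lists were called separately and their folds are not on a common scale, so each gene was placed within that general shift. On this scale SIX2 (1.62), SIX4 (1.44) and SIX3 (1.42) stood in the upper part of the distribution, at percentiles from 79.9 to 87.5. The SIX5 ratio of 1.36 sets peaks with summits 1803 bp apart against each other and was not placed. Over the 11 developmental promoters with summits within 100 bp in both lists the median was 0.71, against 0.93 over all such promoters. For H3K27ac, 8 promoters were shared, with a median log2 ratio of 0.64, against 0.46 over all genes. At TBX6 and SIX4 the highest H3K27ac peaks of the lists had summits 1693 and 838 bp apart. Over the 6 promoters with summits within 100 bp the median was 0.50, against 0.46 over all such promoters.

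SOX5, a SoxD factor of cartilage and neurons, went the other way. Its H3K4me3 peak was nearly as wide in both lists, 1986 bp in the PML knockdown list and 2052 bp in the control list, but the fold enrichment was 11.6 in the PML knockdown list and 23.7 in the control list. The summits lay 12 bp apart. The log2 ratio of −1.03 was at percentile 0.159 of the 11921 shared promoters, rank 19 from the lowest. Among the 10221 promoters whose summits lay within 100 bp in both lists, a restriction made after the data were seen, it held rank 5 from the lowest, and 3.72% of these had a ratio below 0. The −log10 q at SOX5 was 65.0 in the PML knockdown list and 85.2 in the control list. SOX5 has no replicate value, was singled out from 15 genes after its ratio was seen, and had its nearest H3K27ac peak 538 kb from this start in either list. The gene spans 1033041 bp, and 2 H3K27ac peaks of each list lay within it.

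SOX13, a SoxD factor of T cell lineages, had a still lower ratio, −1.37, which does not compare like with like. Its highest peak in the PML knockdown list had its summit 819 bp after the start (fold 4.91, 2750 bp wide). In the control list the highest peak was 332 bp wide with its summit at 142 bp (12.7), and a second one of 1977 bp had its summit at 842 bp (3.15). At the summit that both lists share, the fold was thus 4.91 in the PML knockdown list and 3.15 in the control list. The control summit at 142 bp lies inside the 2750 bp peak, for which the PML knockdown list gives no fold there. A change at that site was not tested. SOX6, the last SoxD gene, had no promoter peak.

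**Figure D4:**
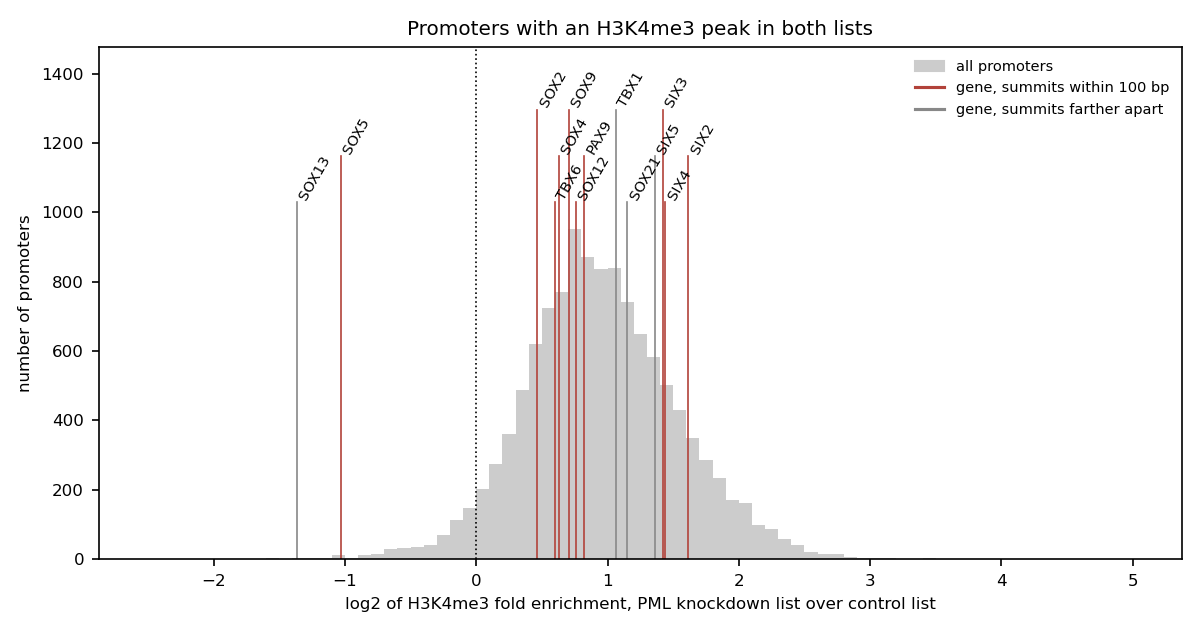
Distribution of the log2 ratio of H3K4me3 fold enrichment, PML knockdown list over control list, for the 11921 promoters marked in both (grey bars, number of promoters). Vertical lines mark the named developmental genes, red where the summits lie within 100 bp. SOX5 at −1.03 and SOX13 at −1.37 stand left of 0, and the other lines lie within the bulk.

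Some genes counted as unmarked had peaks at another annotated start. PAX8, a thyroid and kidney factor, has a transcript starting 43.5 kb inside the gene from its canonical start, where the start of the long noncoding RNA PAX8-AS1 also lies. Peaks carry no strand, so the genes cannot be told apart there. The H3K4me3 peak was 3056 bp with a fold of 59.8 in the PML knockdown list, and overlapped control peaks with folds of 10.7 and 13.9. Against the higher of these, the log2 ratio of 2.10 was at percentile 97.7 of 19721 shared peaks, each set against its highest overlapping control peak. The summit of the PML knockdown peak lay 43245 bp after the canonical start. The control summits lay at 43251 bp (fold 10.7) and 42098 bp (13.9), so this ratio does not compare the same summit. H3K27ac at this start had a fold of 18.4 in the PML knockdown list and 4.61 in the control list, a log2 ratio of 1.99 at percentile 99.4 of 35871 shared peaks. PAX8 was named for these values after they were seen, and they have no replicate. PAX5 had an H3K4me3 peak 8.52 kb from its canonical start, at folds of 9.88 in the PML knockdown list and 5.10 in the control list. PAX6, an eye and islet factor, had a weak H3K4me3 peak in the PML knockdown list only, with a fold of 2.17 and a −log10 q of 1.65, just past the authors' threshold. The 19721 shared peaks are out of 26997 autosomal H3K4me3 peaks in the PML knockdown list, so peaks without a control peak were common.

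Other unmarked genes had H3K4me3 close by, and some are described here as examples. In the PML knockdown list the nearest peak lay 8394 bp from TBX10, 9970 bp from SOX18, 10802 bp from SOX8 and 11893 bp from TBX21. TBX2, which allows cells to bypass senescence, had a peak of 2398 bp (fold 15.5) in the PML knockdown list and 2330 bp (6.20) in the control list. It began 11399 bp after the TBX2 start in the PML knockdown list. A smaller TBX2 peak, of 440 bp (4.61) in the PML knockdown list and 363 bp (2.75) in the control list, began 9269 bp after the start in the PML knockdown list. PAX3, a muscle and melanocyte factor, had one 6352 bp upstream in the PML knockdown list (fold 18.4) and 6512 bp upstream in the control list (6.06). TBX15 had one 12391 bp upstream in the PML knockdown list (7.42) and 12461 bp upstream in the control list (9.64). The TBX15 fold was higher in the control list, but the summits of the lists lay more than 100 bp apart. These folds thus do not compare the same summit. PAX7 had a peak 15663 bp after its start in the PML knockdown list only, with a fold of 4.92 and a −log10 q of 7.43. Of the 26997 autosomal H3K4me3 peaks of that list, 19721 overlapped a control peak, so peaks without one were common. These distances say nothing of which gene a peak acts on.

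Domains were read at the gene start. A start inside a PML domain was found for 5 of 45 genes (11.1%, against 13.7% of all genes), PAX1, SOX5, SOX6, SOX9 and SOX11. LMNB1 domains held 9 starts in PML knockdown cells and the same 9 in control cells, those of PAX1, SOX5, SOX6, SOX9, SOX11, SOX14, TBX5, TBX15 and TBX20. This is 20% of the developmental genes in each condition, while LMNB1 domains held 11.4% of all starts in PML knockdown cells and 12.9% in control cells. None of the 45 starts was in an LMNB1 domain in only 1 condition, against 2.13% of all genes in control cells only and 0.628% in PML knockdown cells only. That count of 0 rests on the domain edges. With domains widened by 35 kb, PAX6 and SOX2 lay inside in control cells only, with gene bodies scored PAX6 did, and with domains trimmed by 35 kb TBX15 did. Over all genes, 83.5% of starts in control LMNB1 domains were also inside in PML knockdown cells, against 9 of 9 here. SIX2 to SIX6 started in no domain of any of the 5 lists, and in all 33 genes lay outside every domain (73.3%, against 77.9% of all genes).

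H3K9me3 domains held 6 of the 45 starts in PML knockdown cells (13.3%, against 8.72% of all genes) and 9 in control cells (20%, against 10.4%). PAX7, SOX1, SOX9, SOX11, TBX3 and TBX5 were inside in both conditions. PAX1, SOX14 and TBX15 were inside in control cells only, 3 of 45 genes against 4.97% of all genes. None was inside in PML knockdown cells only, where the share over all genes was 3.31%. Of the 9 starts in control domains, 6 were thus also inside in PML knockdown cells (66.7%), against 52.1% of all such starts. The PML knockdown list of H3K9me3 covered 356 Mb of the autosomes and the control list 623 Mb, on grids of 35 kb in PML knockdown cells and 23 kb in control cells, so the lists differ in extent and resolution. Its share in the 3 calls was not tested.

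The 3 calls differ in how near the next domain is. In PML knockdown cells the nearest H3K9me3 domain lay 659 kb from PAX1, a factor of vertebral precursors and thymus. It lay 1676 kb from SOX14, an interneuron factor, and 3313 kb from TBX15, a skeletal and adipocyte factor. The TBX15 start was only 13.7 kb inside the edge of its control H3K9me3 domain, less than 1 grid step, whereas the PAX1 and SOX14 starts were 178 and 236 kb inside theirs. TBX15 was also 9.66 kb inside its LMNB1 domain in PML knockdown cells, against 624 kb in control cells, and 8.34 kb outside a PML domain. PAX1 and SOX14 stayed deep in LMNB1 domains in both conditions, at 189.7 and 286 kb from the edge in PML knockdown cells and 184 and 208 kb in control cells. Their control H3K9me3 domains held no H3K4me3 or H3K27ac peak of any list.

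**Figure D5:**
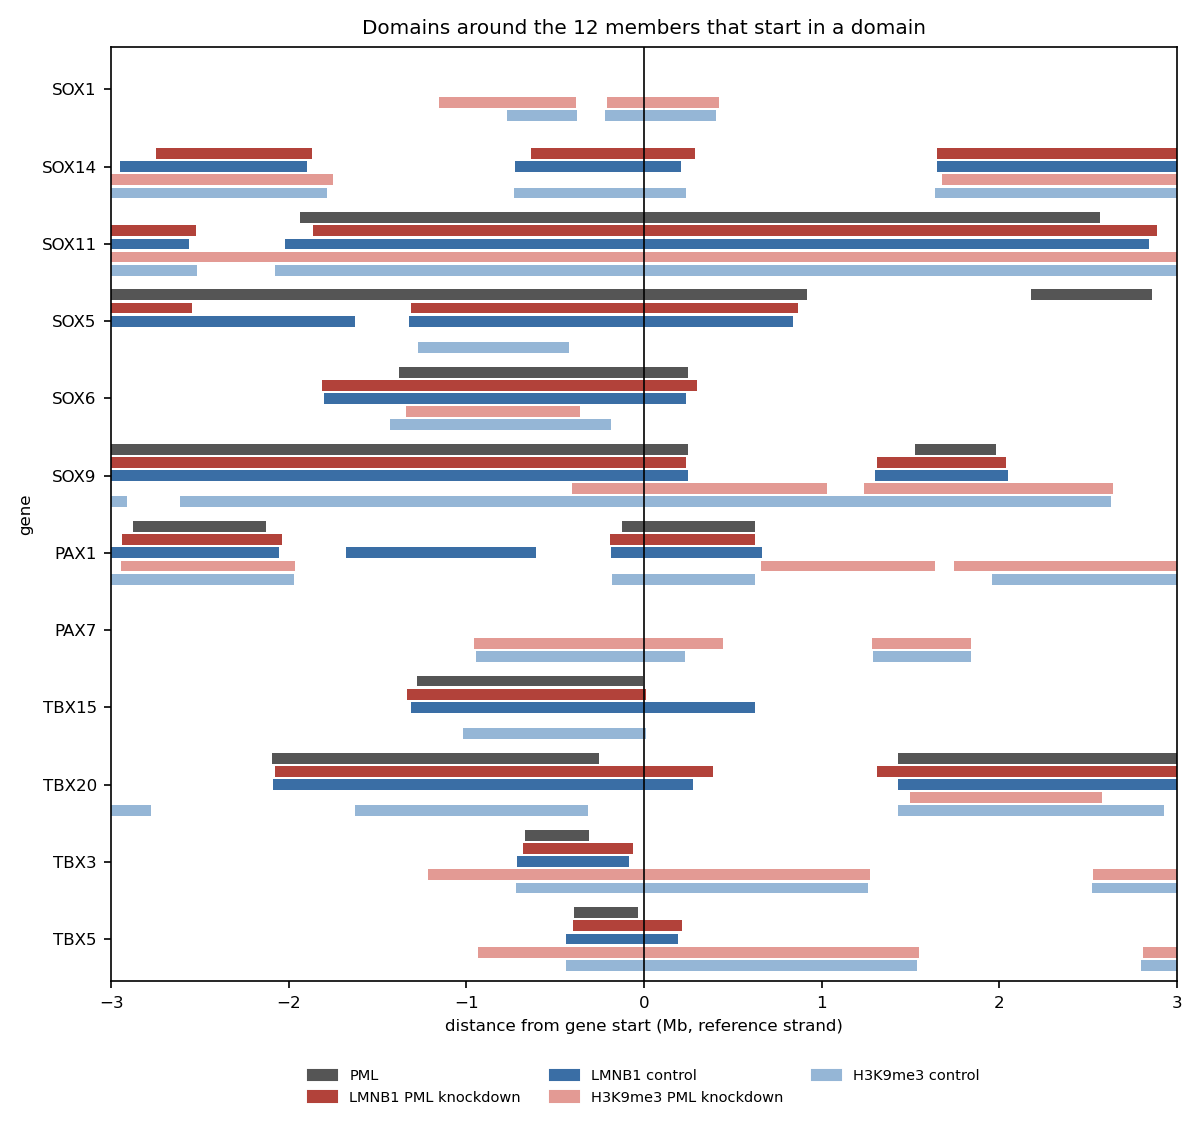
Domains within 3 Mb of the 12 genes that start in one, in Mb along the reference strand, with PML in grey, LMNB1 in PML knockdown (red) and control cells (blue), and H3K9me3 in PML knockdown (light red) and control cells (light blue). SOX11 and SOX9 lie in all 5 lists, and PAX1, SOX14 and TBX15 lack the light red bar over the start.

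SOX9 and SOX11 were the 2 genes inside a domain of all 5 lists (4.44%, against 1.96% of all genes), and they differed in every peak readout. SOX9 lay in a PML domain at chr17:68472001-72369000, of 3.90 Mb with 11 gene starts, 248 kb from its edge. It was among the 14.2% of all genes in 5 lists that also had peaks in all 4 peak lists. Its PML domain held 28 H3K4me3 peaks from the PML knockdown list and 21 from the control list, or 7.19 per Mb in the PML knockdown list and 5.39 in the control list. Over all PML domains these were 3.19 and 2.38 per Mb, counting peaks that touch a domain rather than lie wholly inside it. The SOX9 domain held 47 H3K27ac peaks from the PML knockdown list (12.1 per Mb) and 50 from the control list (12.8 per Mb). Over all PML domains these were 6.35 and 6.41 per Mb, again counting peaks that touch a domain. The H3K9me3 domain around SOX9 was 1.44 Mb in PML knockdown cells and 5.24 Mb in control cells, while the LMNB1 domain was 3.87 Mb in PML knockdown cells and 3.88 Mb in control cells.

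SOX11, a factor of neuronal differentiation, lay in a PML domain of 4.51 Mb, 1939 kb from the nearest edge. That domain held 2 H3K4me3 peaks from the PML knockdown list and 1 from the control list, and the nearest H3K4me3 peak was 1173 kb from the start in PML knockdown cells and 2114 kb in control cells. Its promoter was CpG-rich, with an observed-to-expected ratio of 0.911, above the 0.826 of SOX9. The H3K9me3 domain around SOX11 was 8.40 Mb in PML knockdown cells, the longest of that list, and 5.11 Mb in control cells. SOX9 and SOX11 thus shared all 5 domain calls, while SOX9 had both marks at its promoter and SOX11 neither.

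SOX5, SOX6 and PAX1 were in PML and LMNB1 domains. Of the 5 starts in PML domains, SOX5 and SOX9 had H3K4me3 in both conditions, 40% against 43.5% of all starts in PML domains in PML knockdown cells and 42.7% in control cells. The PML domain of SOX5 was 5.07 Mb, with 22 gene starts of which 13 had H3K4me3 in each condition. SOX6, a factor of cartilage, muscle and red cells, lay in one of 1.63 Mb with 3 gene starts and none marked, and PAX1 was alone in one of 0.747 Mb without any peak. TBX3, a mammary gland factor, and TBX5, a forelimb and heart factor, lie 278 kb apart and shared an H3K9me3 domain of 2.49 Mb in PML knockdown cells and 1.98 Mb in control cells, so they are not separate cases. PAX7, of muscle satellite cells, and SOX1, of neural progenitors, were in H3K9me3 domains alone, of 1.40 and 0.630 Mb in PML knockdown cells and 1.17 and 0.621 Mb in control cells. TBX20, a heart factor, was in LMNB1 domains alone.

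Partners and targets of these factors were counted in the same way, with lists drawn from the known roles of the genes. Of the SIX-family partners EYA1 to EYA4 and DACH1, 4 of 5 had H3K4me3 in both conditions, all but EYA2. H3K27ac was called at 2 of them in the PML knockdown list and 3 in the control list, with DACH1 in the control list only. Over all genes, H3K27ac was called at 54.3% in the PML knockdown list and 51.4% in the control list, with 3.25% in the PML knockdown list only and 0.670% in the control list only, and single genes called in 1 list (DACH1, TBR1, MITF, GATA6) are read against these shares. Of 4 further T-box genes, MGA, TBR1 and EOMES had H3K4me3 in both lists and TBXT did not, and TBR1 had H3K27ac in the PML knockdown list only. None of 5 SOX9 cartilage targets (COL2A1, ACAN, COL9A1, COL11A2, MATN1), 4 PAX5 B cell targets, 2 TBX21 targets or 3 muscle targets had either mark. TSHR was the 1 of 4 PAX8 thyroid targets with H3K4me3, in both lists. MITF was the 1 of 5 melanocyte targets with it, in both lists, and had H3K27ac in the control list only. Among 33 other homeobox and GATA genes, 13 had H3K4me3 in the PML knockdown list and 12 in the control list. H3K27ac was called at 4 in the PML knockdown list and 3 in the control list, with DLX3 (H3K4me3) and GATA6 (H3K27ac) in the PML knockdown list only. Their H3K4me3 share was, like that of the 45 genes, below the 64.4% and 62.5% of all genes.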

How the data were processed

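Cells were fixed with disuccinimidyl glutarate and formaldehyde and sonicated, per the labels' protocols. The submitters' processing notes give the build as hg38 and name deepTools, MACS2 2.2.7.1, Picard 1.104 and BWA 0.7.12-r1039, each with no stated role. Every deposited peak has a fold enrichment (a linear ratio) and a −log10 q-value, which the authors computed, and no deposited −log10 q was below 1.3. The deposited peak names show that replicates 1 and 2 were called jointly. The word pml in these names was taken to mean PML knockdown, an assumption. The deposited domain lists hold 1 score per domain, with no unit stated, which was not used for any comparison, and LMNB1 and H3K9me3 lists with no mark of the hairpin were read as control. Read depth is not given, so no precision could be derived from it.

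Genes were the 19111 autosomal protein-coding genes of GENCODE 44, scored at the canonical start. A promoter was marked if a peak overlapped it by 1 bp. It was marked in 1 list only if the other list had no peak in it. The other list also had to have no peak overlapping those promoter peaks, inside the window or beyond it. Calls were made in Python 3.11.15 with numpy 2.4.6 and pandas 2.3.3, figures were drawn with matplotlib 3.10.9, and the overlaps were checked against bedtools 2.31.1 (0 differing calls) and on simulated peaks. Fold ratios used the highest peak of each promoter. The members and lists were chosen with earlier results of these data known. Values are given for every gene with a promoter peak, a domain or a call that differed, and other genes are named. Printed sequences were those of the widest H3K4me3 peaks, of calls in 1 list and of the most CpG without a peak, among genes with a RefSeq entry. SOX15 has no entry, and chromosome 8 was left out of the last choice. SOX5 was added for its low fold ratio, and SOX13, with a lower one, is not printed. Alternatives were other promoter windows, thresholds, list sizes, starts, overlaps and domain edges. Libraries of H3K27me3 and input were not used here. Of the 45 genes, 1 is counted in the totals and medians, and its own values are not reported here.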

Additional observations from a re-analysis of the deposited data

How the results depend on the processing

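No paired analysis was possible because the lists hold no value per replicate, and for the same reason no replicate could be left out. Of 108 alternatives, 99 kept counts within 1.5 times or medians within the same range. Those for starts in a domain in 1 condition only and for counts of wider peaks were added after seeing the data. With a promoter of 2500 bp on either side, or any annotated start, H3K4me3 in the PML knockdown list only was called at 2 genes in place of 1, with PAX6 added. With peaks within 1 kb joined, the median width became 1834 bp for H3K4me3 in PML knockdown cells and 2052 bp in control cells, which turns their order round, although 13 of 15 shared promoters stayed wider in the PML knockdown list. It became 2333 bp for H3K27ac in PML knockdown cells and 2028 bp for control H3K27ac. With domains widened by 35 kb, 8 starts lay in PML domains, with PAX6, TBX5 and TBX15 added. Starts in an LMNB1 domain in control cells only numbered 2 with domains widened by 35 kb (PAX6, SOX2), 1 with gene bodies scored (PAX6) and 1 with domains trimmed by 35 kb (TBX15), in place of 0. The SOX5 percentile was 0.0489 among promoters with summits within 100 bp, a comparison chosen after seeing the data. Calls that lie near an edge (TBX15 in its LMNB1 domain in PML knockdown cells and its control H3K9me3 domain, SOX4, SOX13 and TBX1 H3K27ac) depend on these settings. TBX6 kept its H3K27ac call in both lists, and the window decided only which of its peaks were counted. Read depth is unknown and limits every missing peak.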
